A study of Mus musculus with 18 samples.

Results

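Hipk3, Camsap1, Fndc3b, Fndc3a, Psd3, Asph, Arhgap10, Fam120a, Dennd1b and Gphn are 10 genes whose circular RNAs are known in both mouse and human and have been studied widely. Their circular RNAs (circRNAs) in mouse liver are described here. A row of the deposited table was counted as a member when its ends lay at exon ends of, or inside, 1 of these genes. That gave 15 of the 474 circRNAs in the table, with all 10 hosts present, and both ends of all 15 fell on exon ends of a single annotated transcript. The hosts were picked with earlier results of these data known, and the members were selected on detection, since a circRNA had to be in the table. No row of the table had reads in fewer than 9 of the 18 libraries. Fndc3a was at that limit of 9 libraries, and 3 members were above 0 in 10 libraries.

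RNA was sequenced from livers of male C57BL/6 mice bought at 6 weeks of age, with 6 mice in each of 3 groups. The Cirrhosis-PTH group was given the hepatotoxin carbon tetrachloride (CCl4) at 10% in corn oil, and each day by mouth Pien Tze Huang (PTH), a traditional Chinese medicine, in a dose of 0.25 mg per g. The Cirrhosis group received the same CCl4 with water by mouth, and the Control group received corn oil with water by mouth. All groups were injected into the peritoneum with 10 µl per g, 2 times a week, and livers were taken at week 12. Of 45 treated mice, 15 per group, 18 were sequenced. The oil, the injections and the daily oral dosing were thus common to all groups, and CCl4 was common to Cirrhosis-PTH and Cirrhosis.

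A circRNA forms when the spliceosome joins the end of an exon back to the start of the same or an earlier exon, a reaction known as back-splicing. The closed molecule has no free ends, resists exonucleases, and is recognised in sequencing only by reads across that junction. Back-splicing is favoured by long flanking introns whose complementary repeats can pair, and the exons next to the first exon of a gene are used often. The level of a circRNA here is therefore a count of junction reads, scaled by the authors to a total that they do not name (CPM). A circRNA has 1 junction whatever its length, so levels were not divided by length.

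The junction is the only stretch of each circRNA that separates it from the linear transcript of its host. The junctions are shown for the members on which the results below turn, with the last 15 bases of the last exon in lower case and the first 15 bases of the first exon in capitals, 5′ to 3′ on the strand of the host, from transcripts of GENCODE M21 on GRCm38.
Hipk3 exon 2: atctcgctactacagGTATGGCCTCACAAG
Fndc3a exons 2 to 3: ttcagtgcattacagAGTTGGAGGGCTTTC
Fndc3b exons 3 to 4: ttcagtgcatccaagGTAGCAGGTTGAGGG
Psd3 exons 2 to 5: gatctgcatggccatTAGGGACCGTTGCTT
Psd3 exons 2 to 6: aaggatcttctgaaaTAGGGACCGTTGCTT
Arhgap10 exons 2 to 3: cagagagaaatcatgGTCTGTCAGCTGCCC
Arhgap10 exons 14 to 18: gaaaaccatgaaaagGTATAAATGACCAAG
Fam120a exons 4 to 5: caccacattacttagGTCCGAGCCCACCAG
Asph exons 2 to 3: ccaaagttttattagAGGCAAAGCACGGAG
Gphn exons 2 to 3: atagaagaaatcaagTGAGTGATAGCTGCT
Gphn exons 2 to 4: gatgtcactccagagTGAGTGATAGCTGCT
The Psd3 circRNAs of exons 2 to 5 and 2 to 6 have the same capitals and different lower-case letters, since they start at the same exon and end at different ones. The Gphn pair differs in the same way. Fndc3a and Fndc3b, which are paralogs, share the letters ttcagtgcat before the junction.

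The exons that the members join were not used by the member rule. The first exon of the circRNA was exon 2 of its transcript in 9 of 15 members, from 7 hosts, against 38.6% of the 435 circRNAs with both ends on exon ends of 1 transcript. Exons 2 to 3 made up 5 of 15 members, from 5 hosts, against 14.3% of the 435. A pair of exons made up 8 of 15 members, against 44.1% of all. The number of exons had a median of 2 in the members and 3 in all, and the exonic length had a median of 265 bp in the members and 306 bp in all. Hipk3 was the single member made of 1 exon, against 4.14% of all. These shares are descriptions, and members of the same host share introns and exons.

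Long introns flanked most members. Both flanking introns were longer than 10000 bp in 12 of 15 members, from 9 hosts, against 41.6% of the 435. The shorter of the 2 flanking introns had a median of 17881 bp in the members and 7929.5 bp in the 434 circRNAs with introns on both sides. Gphn had the longest upstream intron among the members, at 116510 bp. The exceptions were Camsap1, whose downstream intron was 9335 bp, and the Psd3 circRNAs that start at exon 2, whose upstream intron was 1917 bp. The Psd3 circRNA of exons 2 to 6 paired that short intron with the longest downstream intron among the members, 92039 bp.

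**Figure D1:**
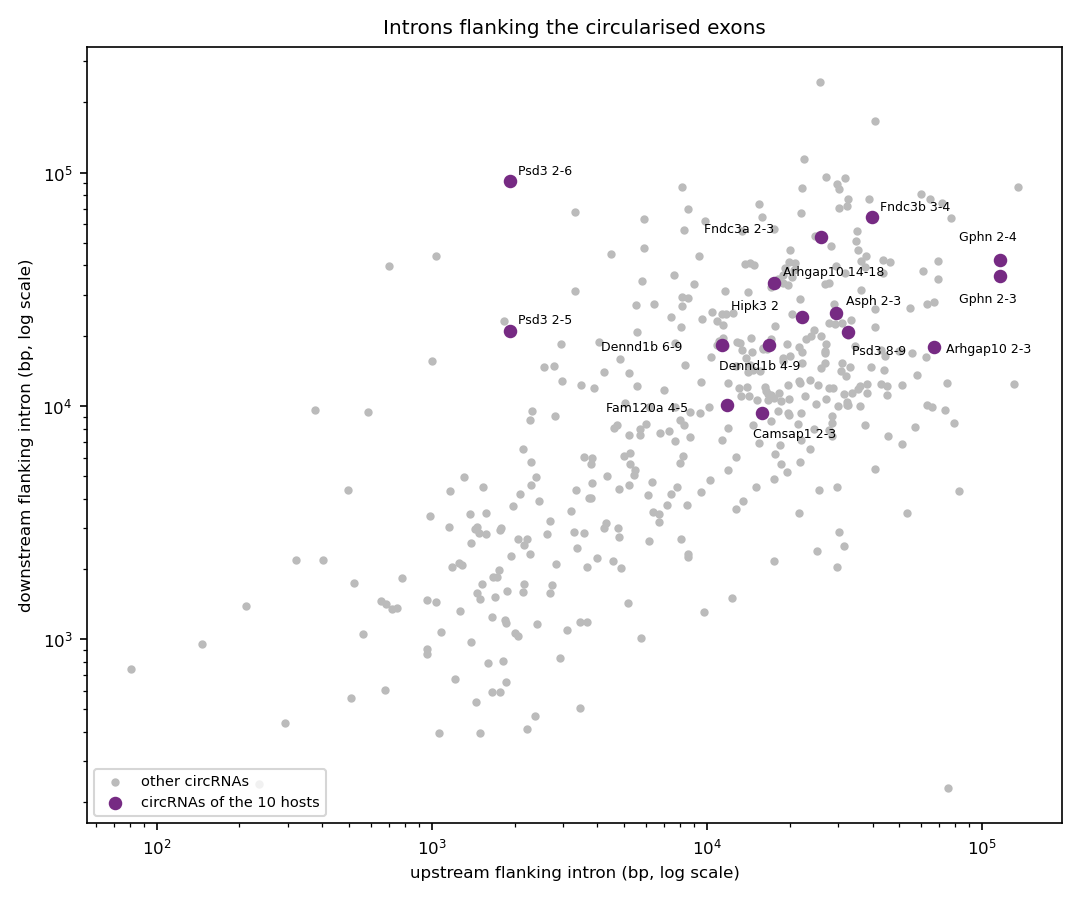
Length of the intron upstream (horizontal axis, bp, log scale) and downstream (vertical axis, bp, log scale) of the circularised exons, with 15 circRNAs of the 10 hosts as large labelled points and the others of the 434 placed circRNAs as small grey points. In the plot of intron lengths, 12 of the 15 lie above 10000 bp on both axes, and the Psd3 circRNAs that begin at exon 2 stand to the left with an upstream intron of 1917 bp.

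Of the members, 12 were made of coding sequence alone, against 82.5% of all, and 3 held the start codon of their host, against 12.9%. These 3 were Hipk3 exon 2, Fndc3b exons 3 to 4 and Fndc3a exons 2 to 3. Read around the circle from that start codon, the frame ran through the junction in all 3 before a stop, for 387 codons in Hipk3, 76 in Fndc3b and 66 in Fndc3a. Of these codons, 22 in Hipk3, 14 in Fndc3b and 8 in Fndc3a lay past the junction. Translation was not measured. The exonic length was a multiple of 3 in 2 of 15 members, Asph exons 2 to 3 and Dennd1b exons 4 to 9, against 34.7% of all.

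Depth was low for all circRNAs. The libraries held 794 to 8431 recovered junction reads, 17817 in Cirrhosis-PTH, 12125 in Cirrhosis and 8842 in Control, and the median was 2 reads per circRNA and library. The totals behind the CPM were 2706146 to 29164326 reads, so that 1 read was worth 0.0343 CPM in Cirrhosis-PTH 6, the deepest library, and 0.370 CPM in Control 1, the shallowest. A value of 0 in a library allowed a level of up to 3 reads, which was 0.103 to 1.11 CPM. Cirrhosis 6 detected 223 circRNAs, the fewest of the 18 libraries, which detected up to 405. Of the 15 members, 7 were above 0 in it. Markers of hepatocytes were present as circRNAs of Egfr and Cyp2c70, 3 in all from a list of 15 genes, with a summed level of 0.257 to 2.91 CPM in Cirrhosis-PTH, 0.369 to 2.56 CPM in Cirrhosis and 0.296 to 4.60 CPM in Control. No circRNA was listed for the markers of stellate cells, endothelial cells, cholangiocytes or erythroid cells, so these cell types could not be followed.

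The members were close to the typical listed circRNA in level and detection. Their mean over all libraries had a median of 0.476 CPM and ran between 0.207 and 1.47 CPM, against a median of 0.375 CPM for all 474. They were above 0 in a median of 13 libraries, against 12 for all, and 28.1% of their values were 0, against 31.0% of all values. Fam120a was the highest at rank 31 of 474, followed by Asph at 55, Psd3 exons 2 to 5 at 87 and Gphn exons 2 to 3 at 101. The lowest were Arhgap10 exons 14 to 18 at rank 413 and Psd3 exons 2 to 6 at 394. Together the members held 3.37 ± 1.32% of circRNA reads in Cirrhosis-PTH, 3.47 ± 0.937% in Cirrhosis and 2.72 ± 0.576% in Control (SD, n = 6 each), and these ranges overlapped.

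**Figure D2:**
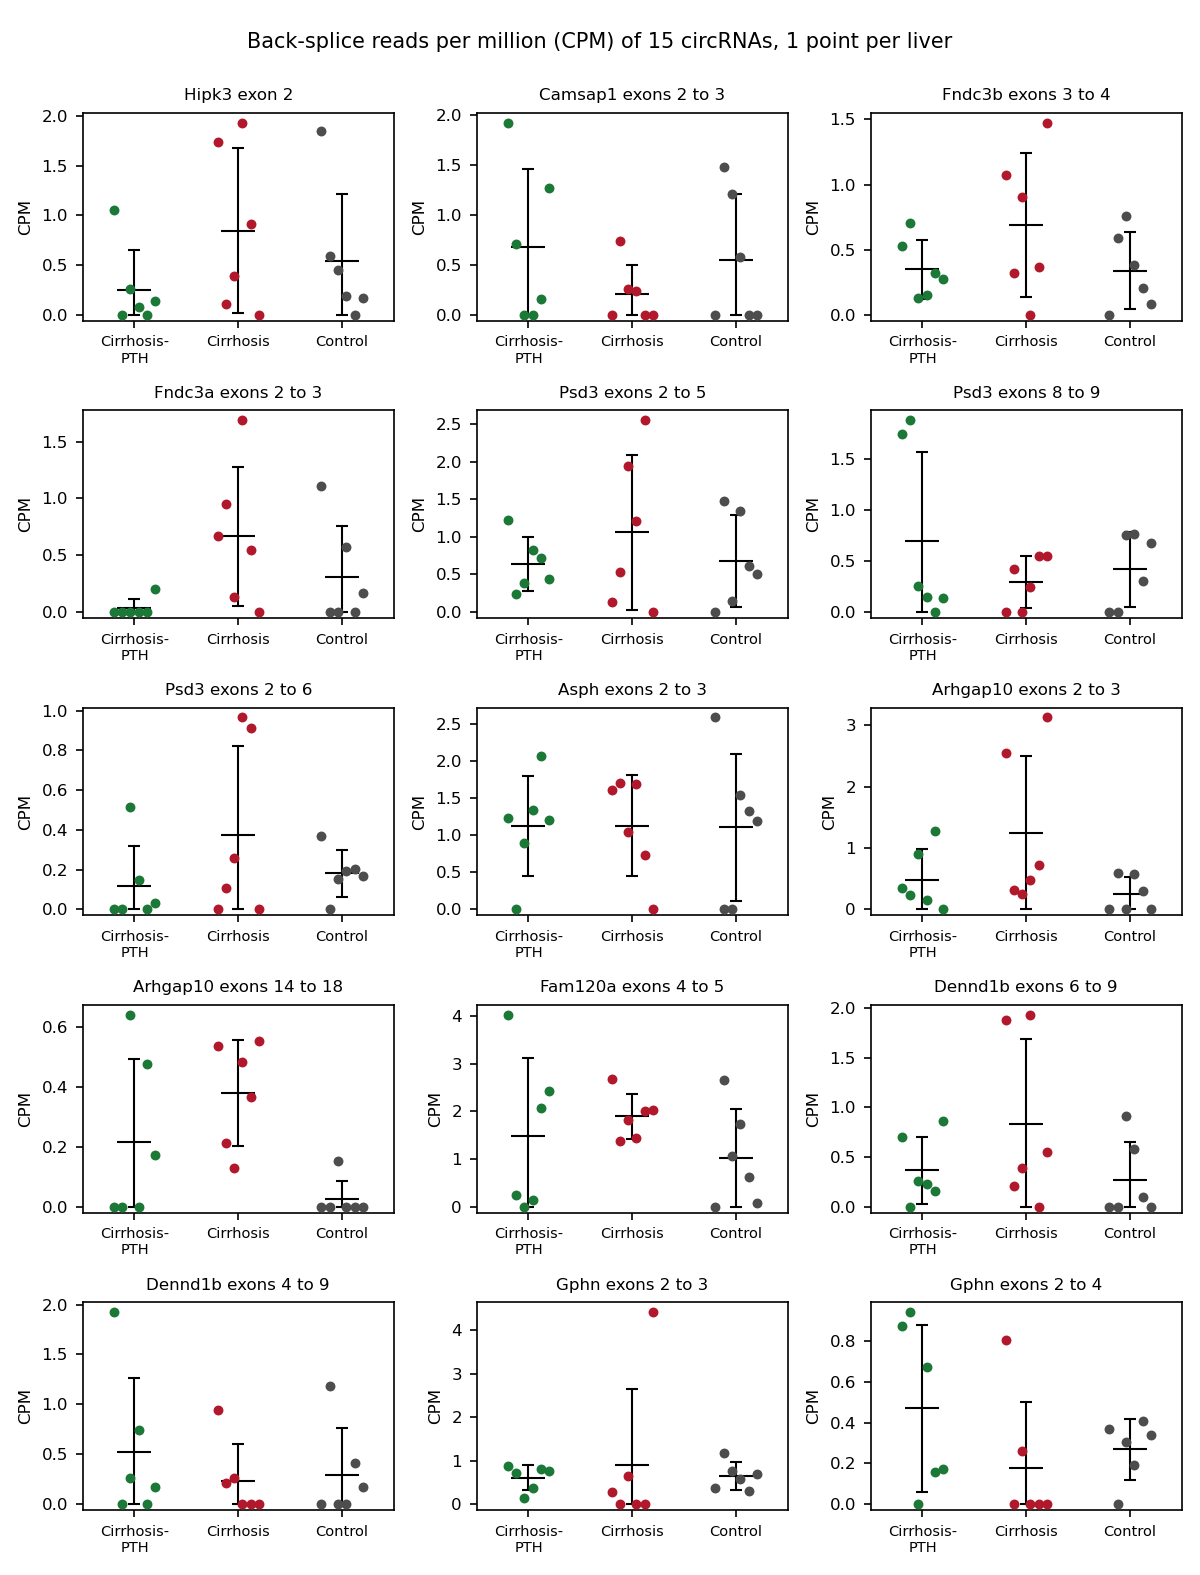
Back-splice reads in CPM (vertical axis, linear, with its own range in each panel) of the 15 circRNAs, 1 point per liver, in Cirrhosis-PTH, Cirrhosis and Control from left to right, with bars at the mean and error bars of 1 SD (n = 6 each; lower bars stop at 0). In the panels of levels by liver, many groups hold points at 0, and a single high liver sets the mean in some of them, such as Cirrhosis 6 at 4.43 CPM for Gphn exons 2 to 3.

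No member passed an adjusted p of 0.05 in limma in any of the 3 comparisons, and neither did any other circRNA of the 474, so the share called was 0.0% in each. In Cirrhosis against Control, 3 of 15 members had an unadjusted p under 0.05, all higher in Cirrhosis, against 12.2% of all circRNAs, of which 8.86% were higher and 3.38% lower. In Cirrhosis-PTH against Cirrhosis, 1 of 15 had such a p and was lower in Cirrhosis-PTH, against 7.17% of all, of which 1.69% were higher and 5.49% lower. In Cirrhosis-PTH against Control, 0 of 15 had such a p in limma, against 5.27% of all, of which 1.48% were higher and 3.8% lower. The 3 members of the first comparison were Fam120a and the 2 Arhgap10 circRNAs, which share a host. The 1 member of the second was Fndc3a. Arhgap10 exons 14 to 18 and Fndc3a reached the table's minimum of 9 libraries only through Cirrhosis, the group where they were high. These counts are therefore descriptions. On recovered reads, the adjusted p was also above 0.05 for all 15 members in edgeR's quasi-likelihood test and in DESeq2. The unadjusted p was under 0.05 for 1 member in each comparison by edgeR, and for 0, 1 and 0 members by DESeq2, in Cirrhosis against Control, Cirrhosis-PTH against Cirrhosis and Cirrhosis-PTH against Control in that order.

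The fitted log2 differences of the members, on the scale of log2(CPM + 0.143), were set beside those of all circRNAs. In Cirrhosis against Control, the fitted difference was above 0 for 10 of 15 members, against 56.1% of all, with a median of 0.37 in the members and 0.12 in all. In Cirrhosis-PTH against Cirrhosis it was above 0 for 6 of 15, against 42.0% of all, with a median of -0.50 in the members and -0.17 in all. Each library was also centred on the median of just 26 circRNAs, those with reads in every library. The first comparison then had 6 of 15 members above 0, against 28.9% of all, and the second 8 of 15, against 63.9% of all. For the first comparison, scaling to summed circRNA CPM gave 10 of 15 members above 0 against 48.1% of all, the replicate block 8 against 46.2%, edgeR 9 against 47.9% and DESeq2 9 against 43.7%. Median centring moved the median of all circRNAs to -0.46 in the first and to 0.34 in the second. In Cirrhosis-PTH against Control, 11 of 15 members were above 0, against 49.8% of all, with a median of 0.26 in the members and -0.01 in all, and centring left this at 11. These comparisons share groups, so they are not separate evidence. No member's groups were free of overlap in any comparison, against 0.211% of all circRNAs in Cirrhosis against Control and 0.422% in each of the others.

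**Figure D3:**
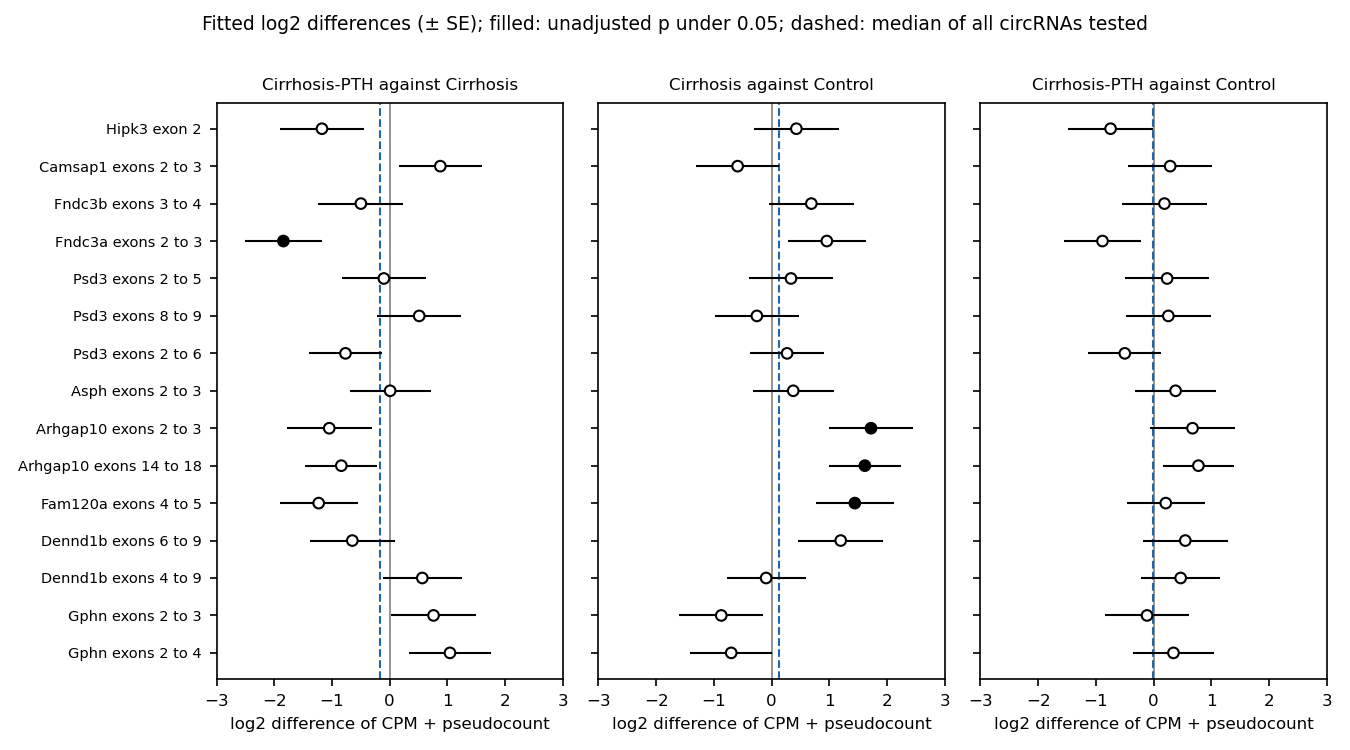
Fitted log2 difference (horizontal axis, log2(CPM + 0.143) scale, limma) of the 15 circRNAs in each comparison, 1 panel per comparison, with error bars of 1 SE, filled points for an unadjusted p under 0.05 and a dashed line at the median of all 474 circRNAs. In the panels of fitted differences, Arhgap10 and Fam120a lie farthest to the right in Cirrhosis against Control, and Fndc3a lies farthest to the left in Cirrhosis-PTH against Cirrhosis at -1.84.

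Arhgap10 encodes a GTPase-activating protein. Its circRNA of exons 2 to 3 (chr8:77450693-77450923, minus strand, 158 bp of coding sequence) and its circRNA of exons 14 to 18 (chr8:77344640-77365160, minus strand, 488 bp of coding sequence) share no exon. The circRNA of exons 14 to 18 had a lowest, median and highest level of 0, 0.0857 and 0.642 CPM in Cirrhosis-PTH, of 0.129, 0.424 and 0.553 CPM in Cirrhosis, and of 0, 0 and 0.152 CPM in Control. Cirrhosis livers all had reads, while 5 of 6 Control livers had none and Control 3 had a single read. The floors of the 5 Control libraries at 0 were 0.255 to 1.11 CPM. Those of Control 1, Control 2 and Control 6 were 1.11, 0.888 and 0.575 CPM, above the highest Cirrhosis level. Any of the Cirrhosis levels could thus have gone undetected in these libraries. Only the lowest Cirrhosis liver overlapped the Control range. This circRNA was above 0 in 10 libraries, 6 of them Cirrhosis, so it reached the table's minimum of 9 only through the group where it was high. Its difference and p below are therefore descriptions of a selected circRNA. Pooled over each group and scaled to its summed depth, the 14 reads in Cirrhosis and 1 read in Control gave a ratio of 13.9. Its exact 95% interval of 2.12 to 589 covers counting error only. The log2 difference of Cirrhosis against Control was 1.62 ± 0.62 (SE), with an unadjusted p of 0.00933 and an adjusted p of 0.234 in limma. All 6 Cirrhosis livers were above the Control mean of 0.0253 CPM. That mean was below the value of 1 read in every Cirrhosis library (0.106 CPM at the lowest), so this restates that all had reads. Cirrhosis-PTH livers held 16 reads in 3 of 6 livers, and neither of their comparisons had an unadjusted p under 0.05 in limma (0.178 against Cirrhosis and 0.211 against Control). On recovered reads, the log2 difference of Cirrhosis against Control was 2.86 in edgeR and 2.51 in DESeq2, with unadjusted p of 0.0350 and 0.0607. For Cirrhosis-PTH against Control, edgeR gave an unadjusted p of 0.0467 for this circRNA.

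The circRNA of exons 2 to 3 of Arhgap10 had a lowest, median and highest level of 0, 0.293 and 1.27 CPM in Cirrhosis-PTH, of 0.259, 0.607 and 3.14 CPM in Cirrhosis, and of 0, 0.153 and 0.592 CPM in Control. The Cirrhosis range reached far above the others because of Cirrhosis 6 and Cirrhosis 1, while the lower Cirrhosis livers fell inside the Control range. The reads numbered 47 in Cirrhosis and 8 in Control. The log2 difference of Cirrhosis against Control was 1.72 ± 0.73 (SE), higher than the Control mean in 6 of 6 livers, with an adjusted p of 0.313 in limma. Its unadjusted p was 0.0190, and 0.0663 without Cirrhosis 6, 0.0641 without Cirrhosis 1, 0.0513 without Control 3 and 0.0529 without Control 8. On recovered reads, this log2 difference was 1.91 in edgeR and 1.84 in DESeq2, with unadjusted p of 0.0579 and 0.0642. Summed over both circRNAs, Arhgap10 had 0.699 ± 0.738 CPM in Cirrhosis-PTH, 1.63 ± 1.40 CPM in Cirrhosis and 0.271 ± 0.268 CPM in Control (SD, n = 6 each). In bulk liver, a change in the number of cells that make a circRNA and a change in its amount per cell cannot be told apart.

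Fam120a encodes a scaffold protein that binds RNA, and its circRNA of exons 4 to 5 (chr13:48932297-48934078, minus strand, 226 bp of coding sequence) was the highest member. Its lowest, median and highest level was 0, 1.15 and 4.03 CPM in Cirrhosis-PTH, 1.38, 1.91 and 2.68 CPM in Cirrhosis, and 0, 0.837 and 2.66 CPM in Control. Cirrhosis livers lay close together, whereas the other groups each ran between livers with no reads and livers at or above the highest Cirrhosis liver or just under it. The log2 difference of Cirrhosis against Control was 1.44 ± 0.68 (SE), higher than the Control mean in 6 of 6 livers, with an unadjusted p of 0.0334 and an adjusted p of 0.381 in limma. Leaving out Control 1, Control 8 or Cirrhosis 1 gave an unadjusted p of 0.154, 0.120 or 0.0655. For Cirrhosis-PTH against Cirrhosis the log2 difference was -1.23 ± 0.68 (SE), with an unadjusted p of 0.0697 and an adjusted p of 0.633 in limma. On recovered reads the log2 difference was -0.12 in edgeR (unadjusted p of 0.844) and -0.17 in DESeq2 (unadjusted p of 0.802), so the difference was nearly absent there. For Cirrhosis against Control, edgeR gave 0.79 and DESeq2 0.63, with unadjusted p of 0.223 and 0.384. With median centring, the unadjusted p in Cirrhosis against Control was 0.118 for Arhgap10 exons 2 to 3, 0.111 for Arhgap10 exons 14 to 18 and 0.176 for Fam120a.

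Macrophage markers were also higher in Cirrhosis than in Control by value, as these 3 circRNAs were. The macrophage list of 9 genes had 3 circRNAs, from Adgre1 and Mertk, with a summed level of 0.149 to 1.19 CPM in Cirrhosis-PTH, 0.184 to 6.76 CPM in Cirrhosis and 0 to 1.02 CPM in Control. The medians of these sums were 0.910, 2.56 and 0.558 CPM in the same order. All 3 had a fitted difference above 0 in Cirrhosis against Control, against 56.1% of all circRNAs, and 2 of them had an unadjusted p under 0.05 in limma, against 12.2% of all. All 3 were below 0 in Cirrhosis-PTH against Cirrhosis, with a median log2 difference of -1.26, and 1 of them, of Adgre1, had such a p, against 7.17% of all. The lymphocyte list of 8 genes had 1 circRNA, of Ikzf1. Its median was 0.422 CPM in Cirrhosis-PTH, 0.467 CPM in Cirrhosis and 0.599 CPM in Control. Its mean was 0.373 ± 0.321, 0.901 ± 1.03 and 0.514 ± 0.351 CPM (SD) in the same order. The fitted log2 difference of Ikzf1 was 0.12 in Cirrhosis against Control and -0.58 in Cirrhosis-PTH against Cirrhosis. Neither had an unadjusted p under 0.05 in limma. Of the 3 hepatocyte marker circRNAs, 1 was above 0 by fitted value in Cirrhosis against Control, against 56.1% of all. In Cirrhosis-PTH against Cirrhosis, 2 were above 0, against 42.0% of all. Their median log2 differences were -0.52 and 0.33, and 0 had an unadjusted p under 0.05 in limma in either. The part of these cell types in the Arhgap10, Fam120a and Fndc3a values was not tested.

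Psd3 and Dennd1b encode guanine nucleotide exchange factors. Psd3 acts on Arf6, which acts in endosome traffic at the plasma membrane, and it gave 3 circRNAs. The circRNA of exons 2 to 5 (chr8:67904117-67908889, minus strand, 460 bp) had a lowest, median and highest level of 0.236, 0.580 and 1.23 CPM in Cirrhosis-PTH, of 0, 0.869 and 2.56 CPM in Cirrhosis, and of 0, 0.561 and 1.48 CPM in Control. The 3 ranges lay over each other, and the Cirrhosis range was the widest. Its log2 difference was -0.10 ± 0.72 (SE) in Cirrhosis-PTH against Cirrhosis. It was 0.34 ± 0.72 (SE) in Cirrhosis against Control.

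The longer Psd3 circRNA of exons 2 to 6 (chr8:67882981-67908889, 550 bp) averaged 0.116 ± 0.203 CPM in Cirrhosis-PTH, 0.374 ± 0.449 CPM in Cirrhosis and 0.181 ± 0.118 CPM in Control (SD, n = 6 each). Without Cirrhosis-PTH 3 the Cirrhosis-PTH mean was 0.0367 CPM. The circRNA of exons 8 to 9 (chr8:67741761-67758265, 265 bp) averaged 0.697 ± 0.875 CPM in Cirrhosis-PTH, 0.294 ± 0.255 CPM in Cirrhosis and 0.418 ± 0.366 CPM in Control (SD, n = 6 each). Its Cirrhosis-PTH mean was 0.459 CPM without Cirrhosis-PTH 2. The 3 Psd3 circRNAs thus did not follow a single order of groups, and the ranges of the 3 groups overlapped for each of them. Of the reads of the 3 Psd3 circRNAs, exons 2 to 5 held 57.1% in Cirrhosis-PTH, 63.5% in Cirrhosis and 48.1% in Control, from 77, 63 and 52 reads.

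Dennd1b is an exchange factor for Rab35, a GTPase of endosome recycling. Its circRNAs of exons 6 to 9 (chr1:139053346-139062971, plus strand, 316 bp) and exons 4 to 9 (chr1:139040000-139062971, 486 bp) end at the same exon and start at different ones. The shorter one averaged 0.366 ± 0.335 CPM in Cirrhosis-PTH, 0.827 ± 0.855 CPM in Cirrhosis and 0.265 ± 0.387 CPM in Control (SD, n = 6 each), and its Control mean was 0.135 CPM without Control 3. The longer one averaged 0.517 ± 0.743, 0.235 ± 0.364 and 0.294 ± 0.465 CPM in the same groups. The highest liver carried much of each mean of the longer circRNA, which without that liver was 0.235 CPM in Cirrhosis-PTH, 0.0942 CPM in Cirrhosis and 0.116 CPM in Control. The shorter one had the smallest p among members not under 0.05 in Cirrhosis against Control, at 0.102 unadjusted and 0.532 adjusted in limma, with a log2 difference of 1.20 ± 0.73 (SE).

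**Figure D4:**
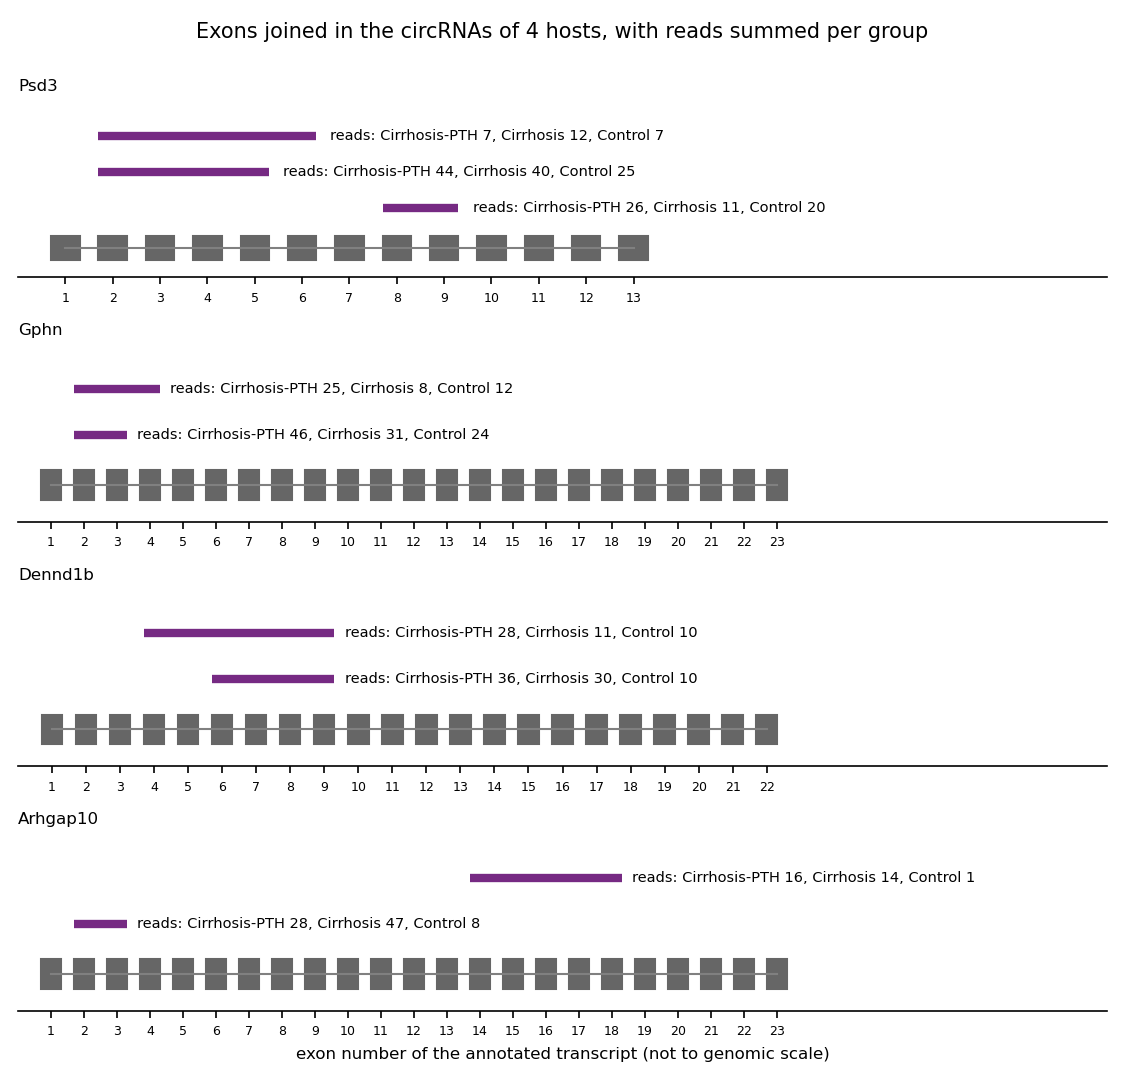
Exons joined in the circRNAs of Psd3, Arhgap10, Dennd1b and Gphn (horizontal axis, exon number in the annotated transcript, not to genomic scale), with the reads summed over the 6 libraries of each group written beside each bar. In the drawing of joined exons, the Arhgap10 circRNAs share no exon and have 47 and 14 reads in Cirrhosis against 8 and 1 in Control, and group sums are not scaled to depth, which was 72897459 reads in Cirrhosis-PTH, 39659105 in Cirrhosis and 39474495 in Control.

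Fndc3a and Fndc3b are paralogs that encode membrane proteins with fibronectin type III domains, and their circRNAs are built alike. The Fndc3a circRNA (chr14:72652016-72683771, minus strand, 214 bp) joins exons of 138 and 76 bp, with 39 bp of 5′ UTR. The Fndc3b circRNA (chr3:27620605-27643089, minus strand, 215 bp) joins exons of 139 and 76 bp, with 28 bp of 5′ UTR. Their 76 bp exons are identical at 53 of 76 positions (69.7%), with no gap. The 2 coding exons are shown with the 23 differing bases in capitals.
Fndc3a exon 3: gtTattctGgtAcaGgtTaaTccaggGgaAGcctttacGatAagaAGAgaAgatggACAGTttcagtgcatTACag
Fndc3b exon 4: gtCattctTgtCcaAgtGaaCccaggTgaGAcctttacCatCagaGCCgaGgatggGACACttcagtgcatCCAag

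The Fndc3a circRNA had the largest fitted difference of any member in Cirrhosis-PTH against Cirrhosis, a comparison in which the 3 macrophage marker circRNAs were also lower by value. It was at the table's minimum of 9 libraries, with 1 in Cirrhosis-PTH, 5 in Cirrhosis and 3 in Control, so its values describe a circRNA selected on detection. Its lowest, median and highest level was 0, 0 and 0.206 CPM in Cirrhosis-PTH, 0, 0.609 and 1.69 CPM in Cirrhosis, and 0, 0.0849 and 1.11 CPM in Control. In Cirrhosis-PTH, 5 of 6 livers had no reads, and all 6 reads came from the deepest library, Cirrhosis-PTH 6. The floors of the 5 libraries at 0 were 0.224 to 0.708 CPM, so levels near the Cirrhosis median could have gone undetected in the shallowest of them. The ranges overlapped through Cirrhosis 6, which had no reads, and Cirrhosis 3. The log2 difference was -1.84 ± 0.67 (SE), lower than the Cirrhosis mean in 6 of 6 livers, with an unadjusted p of 0.00607 (rank 6 of 474) and an adjusted p of 0.386 in limma.

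Pooled over each group and scaled to its summed depth, the 6 Fndc3a reads in Cirrhosis-PTH and 25 in Cirrhosis gave a ratio of 0.131. Its exact 95% interval was 0.0438 to 0.326, for counting error only. This is not the ratio of the mean levels, which were 0.0343 CPM in Cirrhosis-PTH and 0.666 CPM in Cirrhosis. Without Cirrhosis-PTH 6 the remaining libraries held no Fndc3a read. On recovered reads the log2 difference was -2.998 in edgeR (unadjusted p of 0.0117) and -3.23 in DESeq2 (unadjusted p of 0.0146). Leaving out 1 library gave log2 differences between -2.25 (without Cirrhosis 6) and -1.52 (without Cirrhosis 4). The adjusted p in limma was 0.241 without Cirrhosis 6, the lowest of these fits, 0.502 without Cirrhosis 4, and 0.663 at the highest. Against Control the log2 difference of Cirrhosis-PTH was -0.88 ± 0.67 (SE), with an unadjusted p of 0.188 in limma. Cirrhosis against Control gave 0.96 ± 0.67 (SE), with an unadjusted p of 0.154. Median centring left the Cirrhosis-PTH against Cirrhosis difference at -1.33, with an unadjusted p of 0.0532.

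The Fndc3b circRNA averaged 0.351 ± 0.226 CPM in Cirrhosis-PTH, 0.689 ± 0.553 CPM in Cirrhosis and 0.337 ± 0.297 CPM in Control (SD, n = 6 each), and it was above 0 in 16 of 18 libraries, against 9 for Fndc3a. Its log2 difference of Cirrhosis-PTH against Cirrhosis was -0.50 ± 0.73 (SE), with an unadjusted p of 0.497 in limma. Whether the differences of the paralogs differ from each other was not tested.

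Hipk3 encodes a serine/threonine kinase that binds homeodomain proteins, and the circRNA of its large second exon is among the best known in human cells. In mouse liver it joined exon 2 (chr2:104470749-104471847, minus strand, 1099 bp, of which 2 bp are 5′ UTR) to itself and had rank 138 by mean level. It averaged 0.253 ± 0.403 CPM in Cirrhosis-PTH, 0.847 ± 0.832 CPM in Cirrhosis and 0.543 ± 0.674 CPM in Control (SD, n = 6 each). Without its highest liver the Cirrhosis-PTH mean was 0.0937 CPM and the Control mean 0.282 CPM. The log2 difference of Cirrhosis-PTH against Cirrhosis was -1.17 ± 0.73 (SE), with an unadjusted p of 0.110 and an adjusted p of 0.646 in limma. The groups overlapped from no reads upward.

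Camsap1 encodes a protein that binds the minus ends of microtubules. Its circRNA of exons 2 to 3 (chr2:25965663-25966948, minus strand, 425 bp of coding sequence) averaged 0.677 ± 0.787 CPM in Cirrhosis-PTH, 0.207 ± 0.289 CPM in Cirrhosis and 0.545 ± 0.665 CPM in Control (SD, n = 6 each). It was above 0 in 10 of 18 libraries, and the highest liver moved all 3 means by over 1.5 times, to 0.427, 0.100 and 0.358 CPM without it. Its log2 difference was 0.88 ± 0.72 (SE) in Cirrhosis-PTH against Cirrhosis, with an adjusted p of 0.662 in limma.

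Asph encodes an aspartate beta-hydroxylase of the endoplasmic reticulum and, through other transcripts, the calcium-handling protein junctin. Its circRNA of exons 2 to 3 (chr4:9635901-9639347, minus strand, 219 bp of coding sequence) had a lowest, median and highest level of 0, 1.21 and 2.07 CPM in Cirrhosis-PTH, of 0, 1.32 and 1.70 CPM in Cirrhosis, and of 0, 1.26 and 2.59 CPM in Control. The 3 groups covered nearly the same range, and each held a liver without reads. Its log2 difference was 0.01 ± 0.70 in Cirrhosis-PTH against Cirrhosis and 0.37 ± 0.70 in Cirrhosis against Control (SE). Differences well over 1 SE in either direction could not be seen. Arhgap10 exons 2 to 3, at 1.72 ± 0.73 (SE) in Cirrhosis against Control, had an adjusted p of 0.313 in limma.

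Gphn encodes gephyrin, a scaffold of inhibitory synapses that also completes the molybdenum cofactor, which liver enzymes such as sulfite oxidase need. Its circRNA of exons 2 to 3 (chr12:78343352-78376417, plus strand, 137 bp of coding sequence) had a lowest, median and highest level of 0.128, 0.731 and 0.876 CPM in Cirrhosis-PTH, of 0, 0.134 and 4.43 CPM in Cirrhosis, and of 0.306, 0.627 and 1.18 CPM in Control. All Cirrhosis-PTH and Control livers had reads, while 3 of 6 Cirrhosis livers had none and Cirrhosis 6 held 24 of the 31 reads of its group. The Cirrhosis mean was 0.890 ± 1.75 CPM (SD, n = 6) and was 0.183 CPM without Cirrhosis 6. The mean of CPM in Cirrhosis lay above Control, whereas the fitted log2 difference was -0.87 ± 0.73 (SE), with an unadjusted p of 0.233 and an adjusted p of 0.704 in limma.

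The Gphn circRNA of exons 2 to 4 (chr12:78343352-78412433, plus strand, 230 bp) averaged 0.470 ± 0.409 CPM in Cirrhosis-PTH, 0.177 ± 0.324 CPM in Cirrhosis and 0.269 ± 0.151 CPM in Control (SD, n = 6 each). In Cirrhosis, 4 of 6 livers had no read of it, and the mean was 0.0518 CPM without Cirrhosis 1. Its log2 difference of Cirrhosis-PTH against Cirrhosis was 1.04 ± 0.71 (SE), with an unadjusted p of 0.139 and an adjusted p of 0.646 in limma. With median centring, Gphn exons 2 to 3 in Cirrhosis against Control and Gphn exons 2 to 4 in Cirrhosis-PTH against Cirrhosis were the single members with an unadjusted p under 0.05.

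Binding of microRNAs is the role most often proposed for these circRNAs, and a Psd3 circRNA has been studied with miR-92b-3p in mouse liver fibrosis caused by CCl4. The circRNAs were searched for the letters complementary to the seed of that miRNA and of miR-29b-3p, which targets collagen mRNAs. The mature sequences (RefSeq, GRCm38.p6) are shown with the seed in capitals.
mmu-miR-92b-3p: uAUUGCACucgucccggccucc
mmu-miR-29b-3p: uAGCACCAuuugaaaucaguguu
The match to the miR-92b-3p seed, GTGCAAT, occurred in 1 of 15 members, Arhgap10 exons 14 to 18, against 1.61% of the 435 placed circRNAs. The match to the miR-29b-3p seed, TGGTGCT, occurred in 0 of 15, against 4.83% of the 435. The strand of the host was searched around the closed circle. None of the 3 Psd3 circRNAs of this table held the miR-92b-3p letters, which says only that they are absent from these sequences.

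A list of 62 other widely studied circRNA hosts had 16 hosts with 18 circRNAs in the table, led in mean level by Ube3a, Pvt1 and Nfix. Between Cirrhosis and Control, 12 of 18 were above 0 by fitted value, against 10 of 15 members and 56.1% of all circRNAs, and 2 had an unadjusted p under 0.05 in limma, both higher, against 12.2% of all. Between Cirrhosis-PTH and Cirrhosis, 11 of 18 were above 0, against 6 of 15 members and 42.0% of all, and 2 had such a p, both lower, against 7.17% of all. In Cirrhosis-PTH against Control, 14 of 18 were above 0, against 11 of 15 members and 49.8% of all, and 0 had such a p, against 5.27% of all. A list of 26 genes for circRNA formation and turnover had no circRNA in the table.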

How the data were processed

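Liver RNA of 18 mice was sequenced after ribosomal RNA removal, with TRIzol extraction and a NEBNext kit per the labels' protocols, which name no step that digests linear RNA and no sequencing batch. The authors deposited CPM per circRNA, and the total they scaled to the labels and headers do not name. The column of circRNA names is headed ciri_id, per the file headers, and no junction caller or version is named elsewhere. Tools named in the submitters' processing notes, with no role given, are Trim Galore, cutadapt 4.2, HISAT2 2.2.1, Bowtie2, Bowtie 1.3.1 and StringTie 2.1.5, on build GRCm38.

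Whole reads were recovered from the CPM steps: 100% of the 5886 values above 0 came out whole within 0.01, giving 38784 reads. PCR duplicates cannot be told from molecules in them, so the intervals and floors hold counting error alone. Ends were matched to exon ends of GENCODE M21 on GRCm38, and strand was taken from the host. Overlapping transcripts can number exons differently.

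The main test was limma 3.58.1 (trend) in R 4.3.3 on log2(CPM + 0.143), in 1 model of 18 libraries, 2-sided, with Benjamini-Hochberg adjustment over 474 circRNAs at 0.05. The log2(CPM + pseudocount) scale understates the change of low circRNAs. A filter of above 0 in 6 libraries removed none. Alternatives were other pseudocounts (0.0714 and 1 CPM), a filter of 12 libraries, median centring on the 26 circRNAs above 0 in all libraries, scaling to summed circRNA CPM, 2 groups only, the replicate block, edgeR 4.0.16 and DESeq2 1.42.0 on recovered reads, and leaving out each library. The fit was tested on simulated data. Python 3.11.15 was used for the tables.

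Groups and numbers came from the sample titles, and each library is 1 mouse. The members, lists and tests were chosen with earlier results of these data known. Every member is named with its position and level. Lowest, median and highest values are given for those with an unadjusted p under 0.05, the 2 of smallest p per comparison and the 4 of highest mean CPM. Other genes are named among at most the 3 of highest mean level in a list, or as marker circRNAs. The result of 1 gene list is not reported here.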

Additional observations from a re-analysis of the deposited data

Results flagged for a closer look

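In 10 of the 45 sets of 6 livers (15 circRNAs in 3 groups), 1 liver lay apart from the other 5 by more than Dixon's critical gap for 6 values at 95%, a distance that chance alone gives in about 1 of 20 sets of values with a normal spread. Sparse counts do not have such a spread. Hipk3 exon 2 was at 1.05 CPM in Cirrhosis-PTH 1 and at 1.85 CPM in Control 1. Camsap1 exons 2 to 3 was at 0.742 CPM in Cirrhosis 2. Fndc3a exons 2 to 3 was at 0.206 CPM in Cirrhosis-PTH 6, and Arhgap10 exons 14 to 18 at 0.152 CPM in Control 3, each the single liver of its group with reads. Psd3 exons 2 to 6 was at 0.514 CPM in Cirrhosis-PTH 3. Dennd1b exons 4 to 9 was at 0.938 CPM in Cirrhosis 1 and at 1.18 CPM in Control 2. Gphn exons 2 to 3 was at 4.43 CPM in Cirrhosis 6 from 24 reads, and Gphn exons 2 to 4 at 0.804 CPM in Cirrhosis 1 from 6 reads. The other 8 rested on 1 to 7 reads each.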

How the results depend on the processing

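No member had an adjusted p under 0.05 in any of the 28 alternatives of a comparison; the lowest were 0.211 in Cirrhosis against Control, 0.241 in Cirrhosis-PTH against Cirrhosis and 0.717 in Cirrhosis-PTH against Control. Over all 474 circRNAs, the count past that threshold was 0 in each comparison. For Cirrhosis against Control it was 2 with median centring, 1 with DESeq2 and 0 to 1 when a library was left out, with 1 only without Control 3. For Cirrhosis-PTH against Cirrhosis it was 1 with edgeR, 1 with DESeq2 and 0 to 1 when a library was left out, with 1 without Control 6, Cirrhosis 1, Cirrhosis 2 or Cirrhosis 3. At an unadjusted p under 0.05, limma gave 58, 34 and 25 circRNAs in Cirrhosis against Control, Cirrhosis-PTH against Cirrhosis and Cirrhosis-PTH against Control, edgeR 29, 25 and 19, DESeq2 38, 37 and 28, and median centring 78, 60 and 28. With libraries left out, 1 to 4 members had such a p in the first comparison (1 without Cirrhosis 1 or Control 8, 4 without Cirrhosis 5), 1 to 3 in the second (3 without Cirrhosis-PTH 1) and 0 in the third. In the first comparison, all members but Hipk3, the Psd3 circRNAs, Asph and the longer Dennd1b circRNA kept their direction under every alternative that tested them. In the second, all members but Fndc3b, Psd3 exons 2 to 5 and Asph did so. Both Arhgap10 circRNAs and Fam120a in the first comparison and Fndc3a in the second were among those kept. A kept direction therefore did not set them apart from most other members.

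Members whose log2 difference changed sign had values near 0 for their SE, and the cause was not tested. For Cirrhosis against Control, median centring gave -0.15 for Hipk3 exon 2, -0.24 for Psd3 exons 2 to 5, -0.31 for Psd3 exons 2 to 6 and -0.20 for Asph; for Asph, edgeR gave -0.20 and DESeq2 -0.40. For Cirrhosis-PTH against Cirrhosis, median centring gave 0.015 for Fndc3b and 0.41 for Psd3 exons 2 to 5, for which the smaller pseudocount of 0.0714 CPM gave 0.024 and scaling to summed circRNA CPM 0.22. In Cirrhosis-PTH against Control, DESeq2 gave -0.18 for Fndc3b, and edgeR gave 0.018 for Gphn exons 2 to 3. Leaving out 1 library gave, in Cirrhosis against Control, -0.081 to 0.82 for Psd3 exons 2 to 5, -0.57 to 0.011 for Psd3 exons 8 to 9, -0.052 to 0.54 for Psd3 exons 2 to 6, -0.10 to 0.93 for Asph and -0.49 to 0.34 for Dennd1b exons 4 to 9. The same gave, in Cirrhosis-PTH against Cirrhosis, -0.59 to 0.26 for Psd3 exons 2 to 5 and -0.55 to 0.56 for Asph. In Cirrhosis-PTH against Control it gave -0.12 to 0.69 for Camsap1, -0.11 to 0.43 for Fndc3b, -0.18 to 0.52 for Psd3 exons 2 to 5, -0.14 to 0.62 for Psd3 exons 8 to 9, -0.10 to 0.94 for Asph, -0.26 to 0.73 for Fam120a and -0.26 to 0.15 for Gphn exons 2 to 3.

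The deviations of same-numbered libraries had correlations of -0.06 to 0.08, so the numbers were not taken as pairs. In Cirrhosis against Control, however, the best match was the own number for numbers 1, 3 and 6, and not for 2. In the other comparisons it was the own number only for number 4 in Cirrhosis-PTH against Cirrhosis. With the replicate block, the count past the threshold was 0 in each comparison, with 38, 32 and 27 circRNAs at an unadjusted p under 0.05 in the order above. The block, fitted to fewer libraries since only numbers found in both groups enter, took the members with such a p in Cirrhosis against Control to 0, with 0.0544 for Arhgap10 exons 2 to 3, 0.0694 for Arhgap10 exons 14 to 18 and 0.213 for Fam120a; it gave -0.76 for Hipk3 exon 2, -0.22 for Psd3 exons 2 to 5, -0.46 for Psd3 exons 2 to 6 and 0.63 for Dennd1b exons 4 to 9 in Cirrhosis against Control, and -0.16 for Fam120a in Cirrhosis-PTH against Control. Removing the highest liver of a group, an alternative chosen after seeing the data, moved 18 of 45 group means by over 1.5 times. Depth limits the members: 43.3% of all values were 0 or 1 read.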
